A study of Homo sapiens with 24 samples.

Results

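The response of BT549 cells to 3 h of KJ-PYR-9 was described from 6 RNA sequencing libraries, 3 of cells given 40 µM KJ-PYR-9 and 3 of cells given its vehicle (VEH), out of 24 libraries in the series. The members were chosen by their treatment labels within the inhibitor experiment, and a further vehicle group that belongs to another experiment was not used. BT549 is a cell line from a human breast cancer of the triple negative kind, labelled wild type in genotype and grown with 10% fetal bovine serum, so every library here shares that 1 line. KJ-PYR-9 was supplied in DMSO, and VEH is its vehicle group. The KJ-PYR-9+DEX and DEX groups of the same experiment, 3 libraries each, appear beside these results, as do the siMYC group (MYC siRNAs of a SMARTpool for 72 h) and its siCtl control. The dose and time of DEX are not given. No label says that cultures were separate beyond the word BioRep in the titles, so p-values measure the spread between these libraries.

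MYC is a short-lived transcription factor that binds DNA as a dimer with MAX, at sequences called E-boxes, and raises the output of genes for growth, ribosome production and metabolism. KJ-PYR-9 is a small molecule selected for interfering with the pairing of MYC and MAX. At 3 h most mRNAs of a cell have turned over little, and the transcripts that can change most within that time are those with fast decay: immediate early genes of the FOS, EGR and NR4A families, feedback inhibitors of kinases, cytokines and many regulators of transcription. Immediate early genes are transcribed within minutes of a signal through MAP kinases, calcium, cyclic AMP or stress, without new protein, and their mRNAs often carry AU-rich sequences in the 3′ UTR that recruit decay factors such as ZFP36.

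The KJ-PYR-9 libraries held 24.97, 26.92 and 21.17 M reads and the VEH libraries 30.26, 30.76 and 7.846 M, for replicates 1, 2 and 3, and all values below follow that order. VEH replicate 3 was thus the shallowest of the 6. Features with no gene symbol held 1.761% to 5.445% of the reads in KJ-PYR-9 and 1.618% to 1.861% in VEH. The normalized counts summed to 15.664 to 17.156 M in KJ-PYR-9 and 11.451 to 12.263 M in VEH, which is a property of the deposited scaling. The mesenchymal markers fixed for this line were all present, with summed levels of 44079 to 46700 in KJ-PYR-9 and 31061 to 33865 in VEH. Epithelial markers summed to 312 to 434 in KJ-PYR-9 and 117 to 228 in VEH, with EPCAM not in the table and ESRP1 at 0 in all 3 VEH libraries. Leukocyte markers, of which 5 of 13 were in the table, summed to 73.4 to 116 and 60.7 to 87.5, and endothelial and other markers to 340 to 360 and 334 to 402, in KJ-PYR-9 and VEH in that order. Fewer cells of a type and less RNA per cell cannot be told apart in such bulk samples, and the part of these markers in the results was not tested.

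No gene in the table checks the KJ-PYR-9 label independently of the response. In the 12 libraries of the inhibitor experiment the immediate early genes did not follow KJ-PYR-9 alone. FOS had 279, 157 and 257 normalized reads in KJ-PYR-9+DEX and 6528, 5629 and 5868 in DEX, against 21736, 13909 and 16940 in KJ-PYR-9 and 104, 64.9 and 153 in VEH. The high groups were therefore KJ-PYR-9 and DEX, and the low ones VEH and KJ-PYR-9+DEX. FKBP5, a classic glucocorticoid receptor target, did follow the DEX label, with 177, 164 and 136 in KJ-PYR-9+DEX and 48.8, 31 and 44.9 in DEX, against 10, 4.16 and 5.67 in KJ-PYR-9 and 9.46, 4.96 and 14.1 in VEH. TSC22D3 and ZBTB16 followed it as well. KLF9 did too, but was also higher in KJ-PYR-9 (398, 432 and 368) than in VEH (199, 174 and 244). PER1 also did, with 2224, 1977 and 2042 in KJ-PYR-9+DEX against 1182, 1123 and 1416 in KJ-PYR-9. It had 1071, 1274 and 1191 in DEX against 431, 347 and 274 in VEH. Like KLF9 it was also higher in KJ-PYR-9 than in VEH. Of 22 classic glucocorticoid receptor targets tested, 13 were called higher in KJ-PYR-9 than in VEH and 1 lower. In the separately normalized knockdown table FOS had 105, 62.9 and 169 reads in siMYC and 75.1, 108 and 49.3 in siCtl. Whether labels were exchanged between libraries cannot be told apart from a response to the compound in these files, so every difference below is between the libraries as labelled.

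Promoters of 3 strongly rising and 3 strongly falling genes, the foremost of each that have an entry in the RefSeq promoter table, are shown because change within hours is often a matter of transcription. Each line holds the 250 bases before the start of the gene on GRCh38.p14, written 5′ to 3′ on the strand of the gene, with capitals for the motifs searched.

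FOS, chr14:75278578-75278827, plus strand: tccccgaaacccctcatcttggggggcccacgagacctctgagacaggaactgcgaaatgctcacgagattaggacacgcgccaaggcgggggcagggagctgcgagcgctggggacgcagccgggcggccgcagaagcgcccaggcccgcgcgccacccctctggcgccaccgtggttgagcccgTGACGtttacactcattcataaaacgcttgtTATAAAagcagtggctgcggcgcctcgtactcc

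NR4A1, chr12:52022582-52022831, plus strand: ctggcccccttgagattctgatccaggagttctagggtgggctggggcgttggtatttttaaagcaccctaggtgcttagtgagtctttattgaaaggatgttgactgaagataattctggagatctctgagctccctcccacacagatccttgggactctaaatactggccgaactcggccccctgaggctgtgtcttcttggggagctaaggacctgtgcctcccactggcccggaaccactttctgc

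EGR1, chr5:138465229-138465478, plus strand: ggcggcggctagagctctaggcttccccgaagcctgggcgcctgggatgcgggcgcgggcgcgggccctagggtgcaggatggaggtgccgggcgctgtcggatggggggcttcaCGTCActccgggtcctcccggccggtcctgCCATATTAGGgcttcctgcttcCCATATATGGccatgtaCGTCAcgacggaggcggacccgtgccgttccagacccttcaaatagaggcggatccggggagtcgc

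LINC00472, chr6:71420746-71420995, minus strand: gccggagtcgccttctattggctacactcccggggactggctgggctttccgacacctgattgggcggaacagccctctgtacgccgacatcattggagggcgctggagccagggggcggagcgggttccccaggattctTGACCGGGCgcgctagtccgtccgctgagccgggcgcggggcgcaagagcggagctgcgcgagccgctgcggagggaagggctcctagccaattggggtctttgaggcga

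CXCL5, chr4:73998678-73998927, minus strand: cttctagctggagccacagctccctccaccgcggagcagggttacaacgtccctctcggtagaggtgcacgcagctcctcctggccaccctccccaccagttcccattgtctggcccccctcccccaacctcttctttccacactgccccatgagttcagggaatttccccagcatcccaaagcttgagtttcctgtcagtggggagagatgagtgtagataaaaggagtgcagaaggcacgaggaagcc

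SRSF1, chr17:58007247-58007496, minus strand: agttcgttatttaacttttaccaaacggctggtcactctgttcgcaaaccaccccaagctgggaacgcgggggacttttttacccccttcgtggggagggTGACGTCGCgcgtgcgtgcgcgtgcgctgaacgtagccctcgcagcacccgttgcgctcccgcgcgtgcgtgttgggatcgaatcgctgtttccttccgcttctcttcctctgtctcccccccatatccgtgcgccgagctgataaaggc

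The motifs searched on both strands were the cyclic AMP response element TGACGTCA (CRE), its shorter form TGACG, the AP-1 site TGANTCA, the E-box CACGTG, the TATA sequence TATAAA, the antioxidant element TGACNNNGC and the CArG box, the site of serum response factor, searched by its consensus. Every TGACGTCA also counts as a TGACG. The FOS promoter holds TGACG at 64 bases and TATAAA at 33 bases before the start. The EGR1 promoter holds TGACG at 135 and 66 bases and CArG boxes at 105 and 83 bases before it. Among the falling genes, SRSF1 has a TGACG that overlaps an antioxidant element at 150 bases, and LINC00472 an antioxidant element at 110 bases. None of the motifs lay in the windows of NR4A1 and CXCL5. Only 1 start per gene was searched, and for NR4A1, which spans 36672 bases, it is the outermost, so other starts within it were not covered. TGACGTCA was present in 10.6% of 66 promoters of genes called up with a log2 fold change of at least 2, in 4.78% of 670 promoters of genes called up at 2-fold, in 1.32% of 605 promoters of genes called down at 2-fold, and in 2.93% of all 10464 promoters of tested genes. TATAAA had shares of 25.8%, 12.2%, 3.97% and 5.33% of the same 4 sets, and the E-box shares of 9.09%, 10.0%, 6.45% and 8.89%. Of 52 promoters of replication-dependent histone genes 69.2% held TATAAA and 15.4% TGACGTCA, and 32 of 58 such genes tested were called up at 2-fold. How much this 1 family adds to the shares was not tested. These shares are descriptions, and a match is not evidence of a factor at that site.

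The AU-rich nonamer TTATTTATT was looked for in annotated 3′ UTRs, because it marks many unstable mRNAs. Its first copy in 6 rising transcripts is shown with 10 bases on either side, on GRCh38, with the nonamer in capitals.

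FOS, chr14:75282060-75282088, plus strand: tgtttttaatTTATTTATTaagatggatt

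DUSP1, chr5:172768643-172768671, minus strand: gggctggtccTTATTTATTtaacttcacc

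CSRNP1, chr3:39142885-39142913, minus strand: ttctctggatTTATTTATTtgttttaact

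ZFP36, chr19:39409196-39409224, plus strand: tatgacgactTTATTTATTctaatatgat

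CXCL8, chr4:73742664-73742692, plus strand: atgtaaagtaTTATTTATTtgaatctaca

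CXCL2, chr4:74097590-74097618, minus strand: agtcttctatTTATTTATTtatttattta

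The nonamer was found in 17 of 79 3′ UTRs (21.5%) of genes called up with a log2 fold change of at least 2, in 9.24% of those called up at 2-fold, in 14.8% of those called down at 2-fold and in 9.63% of all 12113 tested genes with a 3′ UTR. The UTRs of genes called down at 2-fold were longer, with a median of 1901 bases, against 645 bases in genes called up at 2-fold and 1342 bases overall. After the trends with GC content and length were removed, it was found in 59 of 302 genes up at 2-fold (19.5%) and 8 of 159 down at 2-fold (5.03%), with median UTR lengths of 1326 and 952 bases. By list, 35.3% of cytokines, 34.6% of the other immediate and delayed early genes and 33.3% of the ZFP36, IER and BTG genes held it, against 3.57% of ribosomal protein genes. Not every fast transcript did: NR4A1, NR4A2, EGR1, IL6 and MYC had none.

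Of 13616 genes tested with limma on log2(value + 1), 3455 were higher in KJ-PYR-9 (25.4%) and 2380 lower (17.5%) at an adjusted p under 0.05. The split depended on scaling: it was 2927 higher and 2955 lower with TMM scaling, 2832 and 3120 with quantile scaling, 3406 and 3655 with edgeR's quasi-likelihood test, and 3678 and 3546 with DESeq2. The median log2 fold change of all genes was 0.06 as deposited and -0.01 with TMM scaling. At 2-fold or more 951 genes were higher (6.98%) and 812 lower (5.96%). The rises reached further than the falls. A log2 fold change of 2 or more was called for 102 genes and one of -2 or less for 33, and 27 genes passed 3 against 3 that passed -3. Leaving out 1 of the 6 libraries compared gave 3393 to 5433 called genes, with 3393 without KJ-PYR-9 replicate 3 and 3489 without VEH replicate 1. The first of these were 2240 higher and 1153 lower, the second 2299 and 1190. With the replicate number as a block 32.2% of all genes were higher and 25.8% lower. Counts of a list below are to be read against the calls over all genes in the same setting, and many change with them. Where a list as deposited has no share beside it, 25.4% higher and 17.5% lower of all genes apply. Without KJ-PYR-9 replicate 1 the counts over all genes were 2895 higher and 1719 lower, and without replicate 2 they were 2665 and 1725. Without VEH replicate 2 they were 2557 and 1390, and without VEH replicate 3 they were 3335 and 2098.

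The direction of change followed the base composition of the transcript. Spearman's rho between log2 fold change and GC content was 0.72 across 13288 genes, which are not independent. Genes under 38% GC had a median log2 fold change of -0.77, and 27.6% of them were called lower at 2-fold. Genes of 62% GC or more had a median of 0.81, and 27.0% were called higher at 2-fold. A trend in the same direction separated libraries of 1 group: rho was 0.46 for KJ-PYR-9 replicate 3 against replicates 1 and 2, and 0.46 for VEH replicate 3 against VEH replicates 1 and 2. With GC content and length trends removed, rho was -0.01 and the counts were 2195 higher (16.5%) and 1053 lower (7.92%). Of the 951 genes higher at 2-fold, 657 were still called higher, and of the 812 lower, 412 were still called lower. Of the genes named below as called, CDT1, CEBPD, CLK4, DNAJC3, DUSP9, EIF4E, ID1, INSIG2, MAFK, RRM2B, SRM and ZNF653 no longer passed after that removal, nor did those for which this is said at their values. The part of this trend in any 1 gene was not tested, so the value after removal, called the GC-removed value below, is given beside most families.

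**Figure D1:**
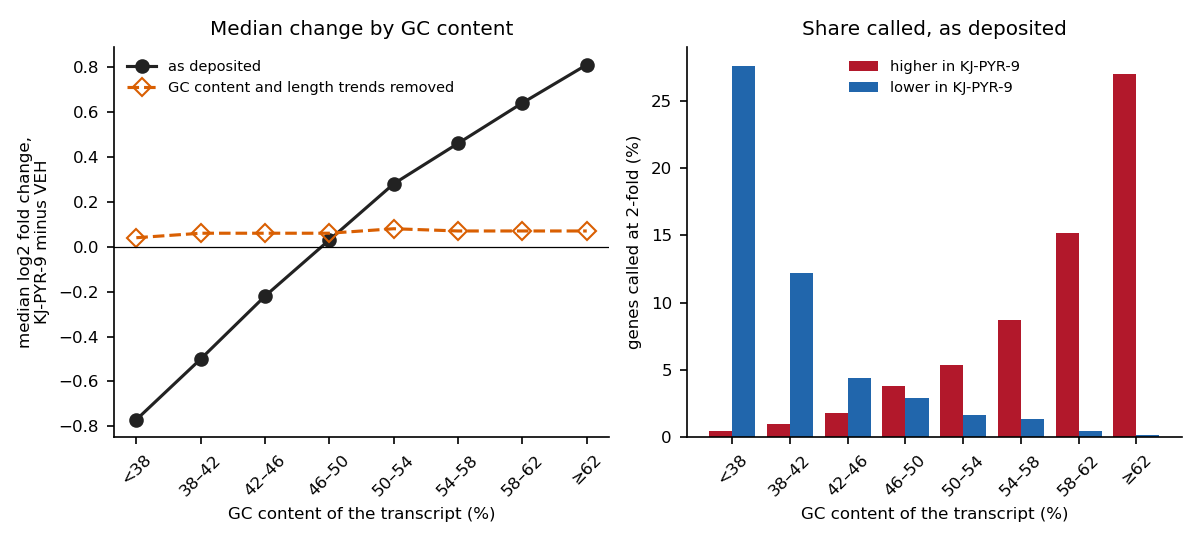
Left, the median log2 fold change of KJ-PYR-9 minus VEH for genes grouped by the GC content of the transcript in percent, as deposited (filled circles) and with GC content and length trends removed (open diamonds). Right, the percentage of genes called at 2-fold, higher (red) or lower (blue) in KJ-PYR-9. As deposited the median runs from -0.77 under 38% GC to 0.81 at 62% GC or more.

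MYC mRNA itself rose. It had 10272, 8283 and 11004 normalized reads in KJ-PYR-9, against 1551, 1378 and 2490 in VEH, so the lowest KJ-PYR-9 library lay well above the highest VEH library (log2 fold change 2.48, SE 0.21, limma adjusted p = 6.38e-05; GC-removed value 2.19). Of the 12 members of the MYC, MAX and MXD network that were tested, 5 rose and none fell. ZBTB17, a zinc finger partner through which MYC represses genes, averaged 948 ± 131 in KJ-PYR-9 and 416 ± 18.3 in VEH (SD, n = 3 each; log2 fold change 1.18, SE 0.19). MNT, a MAX partner that opposes MYC, changed by 0.98 (SE 0.24), and the MXD repressors MXD1 and MXD4 by 0.87 (SE 0.16) and 0.73 (SE 0.15). MAX, the shared partner, had 568, 613 and 638 in the KJ-PYR-9 libraries, against 648, 598 and 649 in the VEH libraries, and the groups overlapped. MXI1 (0.17), MXD3 (0.35), MLX (0.33), MLXIP (0.18), MGA (-0.19) and MYCL (0.41) did not pass the test. With the replicate number as a block MXD3 and MLX did pass, at limma adjusted p = 0.0448 and 0.027, and MLX also passed without VEH replicate 3. With the block and the trends removed together, MXD3 turned to -0.28 and passed as lower (limma adjusted p = 0.0404). With GC and length trends removed MNT and MXD4 no longer passed, at 0.34 and 0.25 (limma adjusted p = 0.0731 and 0.071), while MXD1 stood at 1.24 and MGA turned to 0.25 and passed (limma adjusted p = 0.0449). With quantile scaling 5 rose and 1 fell (median 0.38) in this network.

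Genes that MYC is known to activate did not move as 1 group at 3 h. Of 38 classic MYC-activated growth genes 15 rose and 5 fell, with a median log2 fold change of 0.14, beside 25.4% and 17.5% of all genes and a median of 0.06. Those counts were unstable: without KJ-PYR-9 replicate 3 there were 7 rises and 1 fall, without VEH replicate 1 there were 8 and 1, falls numbered 3 without KJ-PYR-9 replicate 2 and 2 without VEH replicate 2, and with the replicate block there were 17 rises and 10 falls. With quantile scaling the balance turned, as 6 rose and 12 fell (median -0.16), and with GC and length trends removed 9 rose and 3 fell (median 0.19). The arginine methyltransferase PRMT1 had 4284, 4947 and 5674 in the KJ-PYR-9 libraries, against 1548, 2040 and 2047 in the VEH libraries (log2 fold change 1.41, SE 0.21, limma adjusted p = 0.00154). AHCY, which clears S-adenosylhomocysteine, rose by 1.17 (SE 0.18) and SRM, spermidine synthase, by 1.01 (SE 0.17). EIF4E, the cap-binding protein of translation, fell to 186, 237 and 139 in KJ-PYR-9, against 437, 456 and 347 in VEH (log2 fold change -1.16, SE 0.27, limma adjusted p = 0.0071). ODC1, the ornithine decarboxylase often used as a MYC reporter gene, had 1239, 1392 and 910 in the KJ-PYR-9 libraries, against 932, 1831 and 1228 in the VEH libraries, and the groups overlapped. Nucleolar ribosome biogenesis genes were split as well, with 12 of 38 higher and 7 lower (31.6% and 18.4%) and a median of -0.08. BOP1, of the PeBoW complex, rose by 1.28, and BRIX1, WDR75 and UTP15, which act in the assembly of ribosomal subunits, changed by -1.42, -1.11 and -1.06. With quantile scaling 7 rose and 11 fell (median -0.17), and with the trends removed 8 rose and 4 fell (median 0.09). Only 4 falls were left in each of the fits without KJ-PYR-9 replicate 1, 2 or 3 or VEH replicate 1 or 2.

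The 72 h knockdown gave other values for these same lists. In siMYC against siCtl, 1 of the 38 MYC-activated genes was called higher and 12 lower, with a median of -0.44, and none of the 38 ribosome biogenesis genes higher and 10 lower, with a median of -0.43. The background there was 11.4% higher and 4.78% lower of 14788 genes. MYC mRNA had 1655, 1789 and 1710 reads in siMYC and 2313, 2269 and 2138 in siCtl, a log2 fold change of -0.38 that did not pass (limma adjusted p = 0.0587). Counts of called genes in the knockdown were unstable, from 432 to 3983 over the fits that leave out 1 library, and 470 with the replicate block. No test of the difference between the 2 experiments was made, since they were normalized separately and differ in time.

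Of 84 cytosolic ribosomal protein genes 47 were called higher in KJ-PYR-9 and 11 lower as deposited, with a median of 0.44 and a GC-removed median of 0.34. This lean depended on scaling: with quantile scaling 18 rose and 21 fell (median -0.04). RPS28 had 8579, 10295 and 10494 in the KJ-PYR-9 libraries, against 1884, 2355 and 3059 in the VEH libraries (log2 fold change 2.03, SE 0.29, limma adjusted p = 0.00115), and RPS21 and RPLP1 had log2 fold changes of 1.49 and 1.47. RPL21 went the other way, at -0.96 (SE 0.24). Near-identical pseudogenes make single values of this family uncertain. The rises numbered 40 to 44 without any 1 library, and the falls 4 without KJ-PYR-9 replicate 1, VEH replicate 1 or VEH replicate 3, and 2 without KJ-PYR-9 replicate 3 or VEH replicate 2. In siMYC 1 of the 84 was higher and 51 lower, with a median of -0.56.

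The transcription factors of the immediate early response showed the widest changes. FOS, a subunit of AP-1, had 21736, 13909 and 16940 in the KJ-PYR-9 libraries, against 104, 64.9 and 153 in the VEH libraries (log2 fold change 7.40, SE 0.30, limma adjusted p = 4e-07). No FOS value of 1 group came near the other group. FOSB, its close relative, had 2175, 1466 and 1608 in the KJ-PYR-9 libraries, against 48.4, 61.1 and 76.6 in the VEH libraries (log2 fold change 4.80, SE 0.25). The JUN partners were already high in vehicle: JUN had 29642, 22814 and 21176 in the KJ-PYR-9 libraries, against 3597, 3040 and 3831 in the VEH libraries, JUNB had 10713, 9460 and 10289 in KJ-PYR-9 and 1926, 1526 and 1943 in VEH, and JUND had 8373, 9218 and 10333 in KJ-PYR-9 and 2912, 2165 and 2870 in VEH, with log2 fold changes of 2.81, 2.50 and 1.82. ATF3, a stress-induced member that pairs with JUN, had 5781, 4345 and 4287 in the KJ-PYR-9 libraries, against 368, 286 and 342 in the VEH libraries (log2 fold change 3.84, SE 0.15). The small MAF proteins MAFF and MAFK, partners of NRF2, changed by 1.70 and 1.01, and MAFA by 2.73. Of the 16 FOS, JUN, ATF and MAF genes tested, 11 rose and none fell, with a median of 1.38 and a GC-removed median of 0.83. FOSL2 rose by 0.99, while its relative FOSL1 had 1677, 1937 and 2242 in the KJ-PYR-9 libraries, against 623, 1584 and 1600 in the VEH libraries. FOSL1 did not pass (limma adjusted p = 0.108), and with the replicate block it did (0.0107).

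EGR1, a zinc finger factor that turns growth signals into transcription, reached 30810, 21391 and 26951 in KJ-PYR-9, against 587, 369 and 1002 in VEH (log2 fold change 5.44, SE 0.34, limma adjusted p = 1.05e-05). EGR2 had 793, 521 and 755 in the KJ-PYR-9 libraries, against 35.6, 15.3 and 46.9 in the VEH libraries, and EGR3 had 317, 266 and 327 in KJ-PYR-9 and 26.9, 16.8 and 43.8 in VEH (log2 fold changes 4.47 and 3.43, SE 0.38 and 0.34). The orphan nuclear receptors of the NR4A family, which need no ligand and are controlled by their own synthesis, all rose. NR4A1 had 10981, 8028 and 9307 in the KJ-PYR-9 libraries, against 108, 86.2 and 181 in the VEH libraries, NR4A2 had 2913, 2701 and 2990 in KJ-PYR-9 and 74.9, 30.1 and 59.4 in VEH, and NR4A3 had 2518, 2238 and 2685 in KJ-PYR-9 and 91.6, 67.2 and 131 in VEH. The log2 fold changes were 6.28 (SE 0.31), 5.78 (SE 0.39) and 4.72 (SE 0.33), with GC-removed values of 5.71, 5.82 and 4.82. NAB1, a corepressor of EGR proteins, had 161, 169 and 162 in the KJ-PYR-9 libraries, against 284, 224 and 224 in the VEH libraries, a log2 fold change of -0.56 that was not called without KJ-PYR-9 replicate 3 or VEH replicate 1 and stood at 0.01 after the trends were removed. NAB2, the corepressor that EGR1 induces, had 1126, 1116 and 1311 in the KJ-PYR-9 libraries, against 898, 807 and 1166 in the VEH libraries, with overlapping groups (limma adjusted p = 0.358).

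**Figure D2:**
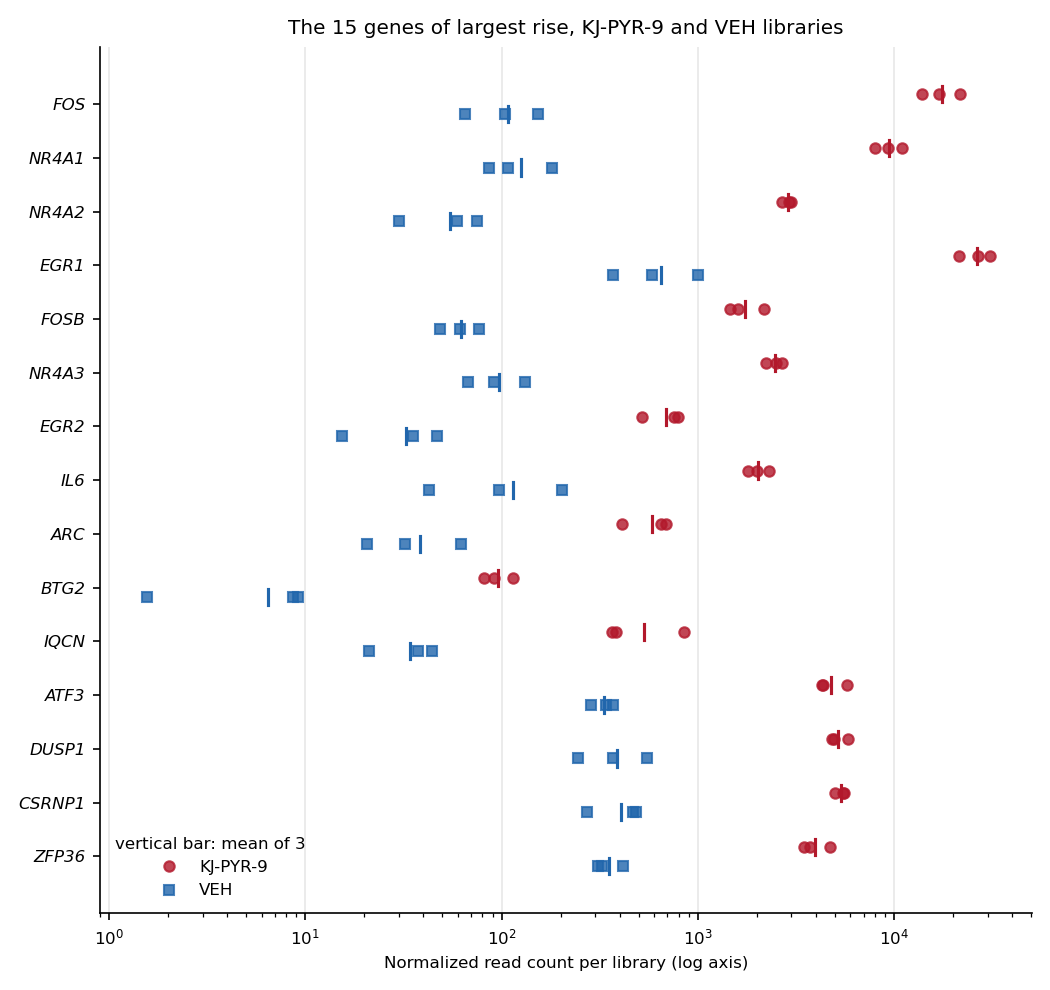
Normalized read count per library (log axis) of the 15 genes of largest rise, with KJ-PYR-9 as red circles above VEH as blue squares and the vertical bar at the mean of 3. The 15 were taken among called genes that average 50 or more and whose groups do not overlap. In each of the 15 genes every KJ-PYR-9 library therefore lies above every VEH library. Groups did not overlap in 64.6% of all genes tested. FOS reaches 21736 in KJ-PYR-9 against at most 153 in VEH.

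Krüppel-like factors rose in part, 7 of 15 with 1 fall, a median of 0.52 and a GC-removed median of 0.45. KLF2 and KLF4, induced by flow and serum in other cells, had 87.2, 61.8 and 77 in the KJ-PYR-9 libraries, against 17.4, 16.8 and 17.2 in the VEH libraries and 2580, 2059 and 2914 in KJ-PYR-9 and 607, 535 and 767 in VEH. KLF6, a widely expressed early response member, had 10659, 9461 and 10637 in the KJ-PYR-9 libraries, against 3301, 2639 and 4112 in the VEH libraries. Their log2 fold changes were 2.06, 1.98 and 1.63, ahead of KLF11 at 1.05, KLF9 at 0.96 and KLF10 at 0.74. These 6 were called in every fit that left out 1 library.

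The feedback inhibitors of MAP kinase signalling also rose. DUSP1, a nuclear phosphatase of p38, JNK and ERK, had 5840, 4959 and 4822 in the KJ-PYR-9 libraries, against 550, 245 and 370 in the VEH libraries (log2 fold change 3.81, SE 0.26, limma adjusted p = 1.48e-05). DUSP6, the cytoplasmic phosphatase of ERK, had 768, 745 and 1079 in the KJ-PYR-9 libraries, against 167, 138 and 309 in the VEH libraries (log2 fold change 2.14, SE 0.30). DUSP2, DUSP8, DUSP10, DUSP5 and DUSP4 had log2 fold changes of 2.17, 2.13, 2.08, 1.98 and 1.71, and DUSP9 one of 1.05. The Sprouty proteins, which block receptor tyrosine kinase signals, had 1963, 1833 and 2196 in KJ-PYR-9 and 505, 354 and 672 in VEH for SPRY2 and 317, 341 and 373 in KJ-PYR-9 and 116, 128 and 206 in VEH for SPRY1. SPRY4 had 694, 650 and 934 in the KJ-PYR-9 libraries, against 432, 304 and 619 in the VEH libraries and did not pass (limma adjusted p = 0.0508), though it did with the replicate block (0.011), and without VEH replicate 3 its log2 fold change was 1.05 and passed. SPRED1, a related inhibitor of RAF, fell by 0.98 on the log2 scale, with a GC-removed value of -0.33 that did not pass (limma adjusted p = 0.164). In all 11 of 20 rose and 2 fell, with a median of 0.95 and a GC-removed median of 0.87.

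ZFP36, which binds AU-rich elements and recruits deadenylases, had 4698, 3483 and 3712 in the KJ-PYR-9 libraries, against 311, 327 and 416 in the VEH libraries (log2 fold change 3.49, SE 0.19, limma adjusted p = 3.8e-06). Its relative ZFP36L1 had 6783, 6511 and 8098 in the KJ-PYR-9 libraries, against 2980, 1776 and 3134 in the VEH libraries, a log2 fold change of 1.48, while ZFP36L2 had 1265, 1243 and 1460 in the KJ-PYR-9 libraries, against 1082, 850 and 1047 in the VEH libraries and did not pass (limma adjusted p = 0.0908), though it did with the block (0.0345). BTG2, an antiproliferative partner of the CCR4-NOT deadenylase, had 115, 92.1 and 81.9 in the KJ-PYR-9 libraries, against 8.7, 9.16 and 1.56 in the VEH libraries (log2 fold change 3.93, SE 0.42), at low levels in VEH. The immediate early genes IER2 and IER3 had log2 fold changes of 2.91 and 2.42. Of the 12 members of this list 8 rose and 1 fell, and 5 rose without KJ-PYR-9 replicate 1.

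Among 29 other immediate and delayed early genes 23 rose and none fell, with a median of 1.34 and a GC-removed median of 1.28, and with quantile scaling 21 rose and 1 fell (median 1.07). ARC, best known as a synaptic immediate early gene, had 650, 412 and 691 in the KJ-PYR-9 libraries, against 32.2, 20.6 and 62.5 in the VEH libraries, with a ratio of means of 15.2. CSRNP1, a nuclear protein first described as induced by axin, had 5548, 5023 and 5515 in the KJ-PYR-9 libraries, against 487, 272 and 466 in the VEH libraries (log2 fold change 3.76, SE 0.23). GEM and RHOB, small GTPases of the cytoskeleton, had 6586, 6347 and 7242 in KJ-PYR-9 and 850, 475 and 713 in VEH and 2327, 2207 and 2482 in KJ-PYR-9 and 350, 322 and 395 in VEH. CCN1 and CCN2, secreted matrix proteins and targets of YAP and SRF, changed by 1.76 and 2.45. GADD45A and GADD45B, stress sensors that bind MAP3K4, changed by 2.19 and 2.22, and the serum and glucocorticoid regulated kinase SGK1 by 2.69. SIK1, a salt-inducible kinase whose reads are shared with a near-identical copy, had a log2 fold change of 2.27. IQCN, which belongs to no list here, was also among the 15 largest rises, with 383, 366 and 855 in the KJ-PYR-9 libraries, against 44.3, 21 and 37.5 in the VEH libraries.

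Genes that respond to cyclic AMP rose with smaller folds, 11 of 17 with none lower and a median of 0.66, but 6 without KJ-PYR-9 replicate 3. With the trends removed 9 rose and none fell (median 0.56). INHBA, the activin subunit, had 434, 313 and 551 in the KJ-PYR-9 libraries, against 95.4, 98.1 and 142 in the VEH libraries (log2 fold change 1.93, SE 0.23, limma adjusted p = 0.000559). CREM and CREB5, factors that bind the CRE, changed by 0.79 and 1.07, and the phosphodiesterase PDE4B by 0.98. GC-removed values were larger for these last 3, at 1.32, 1.65 and 1.30.

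Cytokines held some of the largest rises and 1 of the largest falls. IL6, the gp130 cytokine, had 2001, 1795 and 2308 in the KJ-PYR-9 libraries, against 96.9, 42.7 and 203 in the VEH libraries (log2 fold change 4.40, SE 0.46, limma adjusted p = 0.000224). The neutrophil chemokines CXCL2, CXCL3 and CXCL8 had 1978, 1321 and 1548 in KJ-PYR-9 and 159, 105 and 313 in VEH, 281, 146 and 244 in KJ-PYR-9 and 52.6, 37 and 90.7 in VEH and 559, 436 and 717 in KJ-PYR-9 and 137, 89.3 and 288 in VEH, with log2 fold changes of 3.19, 1.92 and 1.87. CXCL5, of the same chemokine family, fell to 137, 157 and 113, against 583, 638 and 588 in VEH (log2 fold change -2.15, SE 0.33, limma adjusted p = 0.00161). The groups of each of these 5 genes did not overlap, which was so for 64.6% of all genes tested. Of 17 cytokines tested 9 rose and 1 fell, with a median of 0.65 and a GC-removed median of 0.83.

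The growth factor HBEGF, a ligand of the EGF receptor, had 938, 749 and 870 in the KJ-PYR-9 libraries, against 128, 126 and 208 in the VEH libraries (log2 fold change 2.49, SE 0.27). Of the NF-kB subunits and feedback inhibitors 14 of 21 rose and 2 fell, and those falls were absent without KJ-PYR-9 replicate 3 or VEH replicate 1. NFKBIZ, NFKB2, NFKBIA, BCL3 and TNFAIP3, which are targets of NF-kB that modulate it in turn, had log2 fold changes of 1.85, 1.35, 1.34, 1.26 and 1.06. The median of the list was 0.62, and with the trends removed 8 rose and none fell (median 0.25). Downstream of cytokine receptors, the C/EBP factors CEBPB and CEBPD had 4143, 4264 and 5184 in KJ-PYR-9 and 1063, 840 and 1464 in VEH and 3948, 4419 and 4792 in KJ-PYR-9 and 1994, 1132 and 1785 in VEH, and the inhibitors SOCS1 and SOCS3 changed by 1.66 and 1.38.

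**Figure D3:**
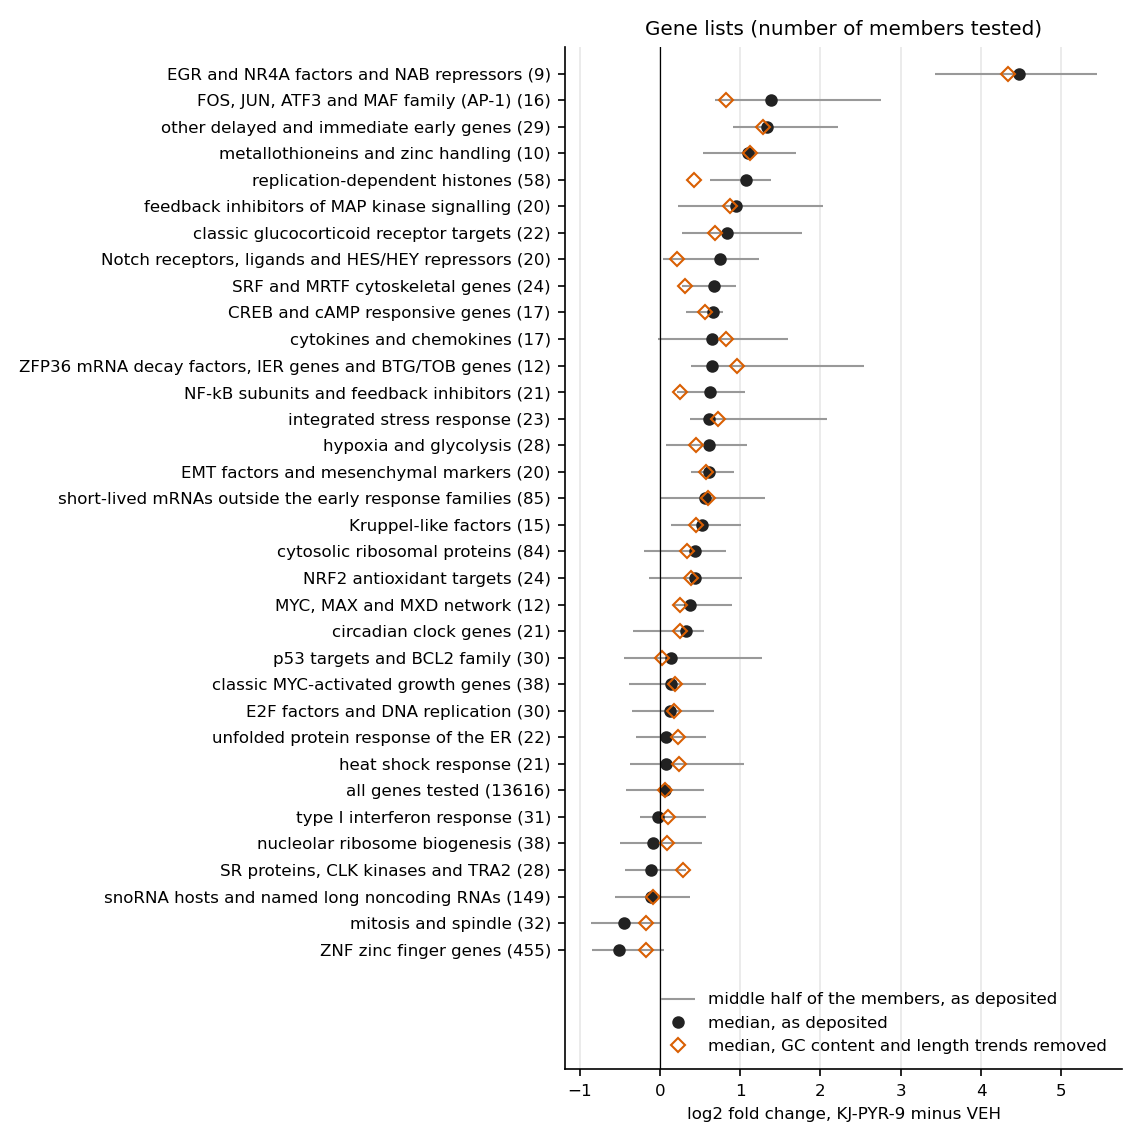
Median log2 fold change, KJ-PYR-9 minus VEH, of the tested members of each list (black circle, with the middle of the members' range from the lower to the upper quartile as a grey line) and the median with GC content and length trends removed (open diamond). The EGR and NR4A list stands at 4.47, the AP-1 list at 1.38 and the ZNF genes at -0.51, while all 13616 genes have a median of 0.06.

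Beyond these families, 85 genes known for short-lived mRNAs were followed as a list of their own, and 48 rose and 6 fell, with a median of 0.56 and a GC-removed median of 0.60, beside 25.4% and 17.5% of all genes. Rises numbered 43 to 47 without 1 library, and falls 3 without KJ-PYR-9 replicate 3. OTUD1, a deubiquitinase, had 669, 737 and 679 in the KJ-PYR-9 libraries, against 103, 86.2 and 144 in the VEH libraries (log2 fold change 2.67, SE 0.21, limma adjusted p = 5.27e-05). PIM1, a kinase with an unstable mRNA and protein, had 1794, 1785 and 1933 in the KJ-PYR-9 libraries, against 529, 493 and 756 in the VEH libraries, a log2 fold change of 1.66. The coregulator CITED2 and the repressor BCL6 changed by 1.78 and 1.13, and SOX9 and the histone demethylase KDM6B by 1.60 and 1.68. MCL1, the short-lived survival protein, changed by 0.56 (SE 0.12), and by 0.07 with quantile scaling, which did not pass. CCNL1, a cyclin of splicing, rose by 1.22, with a GC-removed value of 2.10. Other members of the list did not pass: CCND1 had 563, 561 and 489 in the KJ-PYR-9 libraries, against 452, 807 and 646 in the VEH libraries, HEXIM1 had 867, 880 and 736 in KJ-PYR-9 and 905, 895 and 852 in VEH, and IRF1 had 1264, 784 and 976 in KJ-PYR-9 and 1055, 740 and 1033 in VEH, and in each the groups overlapped. MDM2, the ubiquitin ligase of p53, fell by 0.88 on the log2 scale (SE 0.20).

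Stress pathways moved in part. Of 23 genes of the integrated stress response, which is read out through ATF4, 15 rose and none fell, with a median of 0.61 and a GC-removed median of 0.72, and with quantile scaling 9 rose and 1 fell (median 0.39). GDF15, a secreted stress signal, had 6702, 6014 and 13355 in the KJ-PYR-9 libraries, against 414, 433 and 2315 in the VEH libraries (log2 fold change 3.44, SE 0.78). DDIT3, which encodes CHOP, had 1433, 1098 and 1399 in the KJ-PYR-9 libraries, against 229, 218 and 456 in the VEH libraries, and PPP1R15A, the phosphatase subunit that ends the response, had 4239, 3733 and 3842 in KJ-PYR-9 and 636, 883 and 967 in VEH. SESN2, DDIT4, TRIB3, CHAC1 and ASNS, all targets of ATF4, had log2 fold changes of 2.53, 2.07, 2.10, 2.15 and 1.96. ATF4 mRNA itself changed by 0.61 (SE 0.11), and with GC and length trends removed by 0.17 and with quantile scaling by 0.15, neither of which passed.

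The chaperone responses were less uniform. Of 22 genes of the unfolded protein response 8 rose and 3 fell (36.4% and 13.6%, beside 25.4% and 17.5% of all genes). The median was 0.08, and 4 rose without KJ-PYR-9 replicate 3, VEH replicate 1 or VEH replicate 2. With quantile scaling 4 rose and 9 fell (median -0.15), and with the trends removed 8 rose and 2 fell (median 0.23). HERPUD1 and SDF2L1, of protein quality control in the ER, changed by 1.29 and 1.51, and the cochaperone DNAJC3 by -0.76. Heat shock genes had 8 rises and 2 falls among 21, with a median of 0.08. HSPA1A, the inducible HSP70, had 4389, 1944 and 2602 in the KJ-PYR-9 libraries, against 656, 653 and 914 in the VEH libraries, and its near-identical copy HSPA1B had a log2 fold change of 1.95, with reads that cannot be told apart. DNAJB1 and HSPB1 changed by 1.36 and 1.10. With the block the heat shock falls numbered 7. With quantile scaling 7 rose and 9 fell (median -0.51), and with the trends removed 7 rose and 1 fell (median 0.24).

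Metallothioneins, which bind zinc and copper, and zinc handling genes such as SLC30A1, which exports zinc, rose in part. Of 10 tested 6 were called higher (60.0%, beside 25.4% of all genes), none lower and 4 neither. The median was 1.10 and the GC-removed median 1.12. With the replicate block, edgeR or DESeq2 6 rose and 1 fell. MT1F had 45.8, 46.4 and 105 in the KJ-PYR-9 libraries, against 8.7, 19.5 and 9.38 in the VEH libraries (log2 fold change 2.28, SE 0.43), MT1E and MT1X changed by 1.71 and 1.68, and SLC30A1 had 1133, 1110 and 1536 in KJ-PYR-9 and 409, 587 and 513 in VEH (log2 fold change 1.32). Metallothionein genes share sequence, so their single values are uncertain. Of the NRF2 targets 10 of 24 rose and 1 fell. With quantile scaling 6 rose and 3 fell (median 0.06), and with the trends removed 10 rose and none fell (median 0.39). OSGIN1 and SRXN1 had log2 fold changes of 1.85 and 1.80, HMOX1, the heme oxygenase, 1.13, and KEAP1, the inhibitor of NRF2, 1.09. Among hypoxia genes 14 of 28 rose and 3 fell. With quantile scaling 9 rose and 6 fell (median 0.30), and with the trends removed 13 rose and 1 fell (median 0.45). Rises numbered 9 without KJ-PYR-9 replicate 3 or VEH replicate 1, with ADM at 1.28 and ANKRD37 at 1.58.

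Targets of p53 had 12 rises and 6 falls among 30, beside 25.4% and 17.5% of all genes. The share of falls was near that of all genes. Their median was 0.14, against 0.06 for all genes. With quantile scaling 9 rose and 8 fell (median 0.12), and with the trends removed 10 rose and 4 fell (median 0.03). CDKN1A, the CDK inhibitor p21, had 1046, 1059 and 1525 in the KJ-PYR-9 libraries, against 343, 239 and 477 in the VEH libraries (log2 fold change 1.81, SE 0.27), and BBC3, which encodes PUMA, had 297, 318 and 412 in KJ-PYR-9 and 70.4, 74.8 and 141 in VEH (log2 fold change 1.89). ZMAT3 and TP53INP1, also p53 targets, fell to 80.9, 102 and 83.5 and 241, 237 and 212 in KJ-PYR-9, against 277, 310 and 244 and 635, 516 and 481 in VEH, and RRM2B fell by 1.15 on the log2 scale. CDKN1C, the related inhibitor p57, rose by 1.81.

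HES1 and HEY1, repressors downstream of Notch, had 443, 445 and 464 in KJ-PYR-9 and 187, 129 and 163 in VEH and 176, 149 and 254 in KJ-PYR-9 and 48.4, 31.3 and 46.9 in VEH, and NRARP, a feedback inhibitor of Notch, had 81.5, 73.7 and 77 in KJ-PYR-9 and 11, 16 and 9.38 in VEH, with log2 fold changes of 1.51, 2.15 and 2.61. Of 20 Notch genes 10 rose and 1 fell, with a median of 0.75, and with the trends removed 7 rose and 1 fell (median 0.22). In the WNT list 11 of 29 rose, led by the secreted inhibitor DKK1 at 1.75 (SE 0.26), and 1 fell, or 6 with the block. With quantile scaling 10 rose and 5 fell (median 0.43), and with the trends removed 5 rose and 1 fell (median 0.25). TGF-beta and BMP genes had 9 rises and 1 fall among 27 (33.3% and 3.7%, beside 25.4% and 17.5% of all genes). BMP2 stood at 1.35, the corepressor TGIF1 at 1.11 and ID1 at 0.90. With the trends removed 4 of the 27 rose and 4 fell (median 0.18). Among SRF and MRTF cytoskeletal genes 14 of 24 rose and none fell as deposited, with a median of 0.67. With quantile scaling 6 rose and 3 fell (median 0.19), and with the trends removed 8 rose and none fell (median 0.31). ACTB and ACTG1, the cytoplasmic actins, had log2 fold changes of 1.33 and 1.29, and ACTB did not pass with quantile scaling (0.40). The EMT factors SNAI1, SNAI2 and TWIST1 changed by 1.83, 1.02 and 1.12. Of 21 clock genes 6 rose (28.6%, beside 25.4% of all genes) and none fell, among them PER1 by 1.84, NR1D1 by 1.71 and NFIL3 by 1.17. With quantile scaling 7 rose and 2 fell (median 0.26), and with the trends removed 5 rose and 1 fell (median 0.25).

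Replication-dependent histone genes rose as a family, 41 of 58 with 1 fall and a median of 1.07, and 31 to 41 rose without 1 library. The GC-removed median was 0.43, with 22 higher and 1 lower. H2BC14 had 1851, 1993 and 1974 in the KJ-PYR-9 libraries, against 361, 516 and 522 in the VEH libraries, H2BC18 had 6331, 7737 and 7190 in KJ-PYR-9 and 1668, 2245 and 2141 in VEH, and H3C10 had 8102, 9612 and 8572 in KJ-PYR-9 and 2165, 3136 and 2571 in VEH, with log2 fold changes of 2.07, 1.82 and 1.75. Histone mRNAs end in a stem loop and lack poly(A) tails, and these libraries were made by depletion of ribosomal RNA, which keeps such RNAs. Copies of these genes are near identical, so single values are uncertain. Of the E2F and replication genes 13 of 30 rose, among them MCM2 at 1.29, MCM5 at 1.26 and CDT1 at 1.03, and 2 fell. With quantile scaling 8 rose and 4 fell (median -0.09), and with the trends removed 7 rose and none fell (median 0.18). Falls of that list numbered 8 with the block and 0 without KJ-PYR-9 replicate 1 or 3 or VEH replicate 1 or 2. Mitotic genes had a median of -0.44, with 3 rises and 5 falls among 32. With the trends removed none of them was called (median -0.17), and with quantile scaling 1 rose and 15 fell (median -0.66). With the block 19 of the 32 fell, without VEH replicate 3 12 did, without KJ-PYR-9 replicate 1 or 2 there were 3, and without KJ-PYR-9 replicate 3 or VEH replicate 1 or 2 none did. Their rises numbered 1 without KJ-PYR-9 replicate 2 or 3 and 0 without VEH replicate 1.

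The falls were smaller than the rises. The 15 largest falls were taken among called genes that average 50 or more without overlap of the groups. The 3 genes that passed -3 are not among them. IER3IP1, an ER membrane protein named for its binding to IER3, fell to 45.2, 61.8 and 42.1, against 274, 259 and 175 in VEH (log2 fold change -2.22, SE 0.43, limma adjusted p = 0.00355). SRSF1, the splicing factor that promotes exon inclusion, fell to 193, 253 and 140, against 836, 908 and 699 in VEH (log2 fold change -2.09, SE 0.34, limma adjusted p = 0.00207). TMED7, a cargo receptor of the early secretory pathway, had 234, 280 and 179 in the KJ-PYR-9 libraries, against 1084, 951 and 821 in the VEH libraries, and CUL5, a cullin scaffold of ubiquitin ligases, had 129, 124 and 74.6 in KJ-PYR-9 and 451, 459 and 308 in VEH. MZT1, of the gamma-tubulin complex, had 74, 85 and 49.4 in the KJ-PYR-9 libraries, against 313, 337 and 181 in the VEH libraries. NDUFC2, a subunit of respiratory complex I, had 53.9, 57.7 and 28.4 in the KJ-PYR-9 libraries, against 160, 192 and 173 in the VEH libraries. ELMOD2, FAM217B and SLC35A3, a Golgi nucleotide sugar transporter, had log2 fold changes of -1.93, -1.88 and -1.84. In each of the 15 genes of largest fall the groups did not overlap, which the choice of these genes required, and each was called in all 6 fits without 1 library. GC-removed values of these 15 were closer to 0 than the deposited ones, such as -1.47 for IER3IP1, -1.61 for SRSF1 and -0.89 for MZT1.

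**Figure D4:**
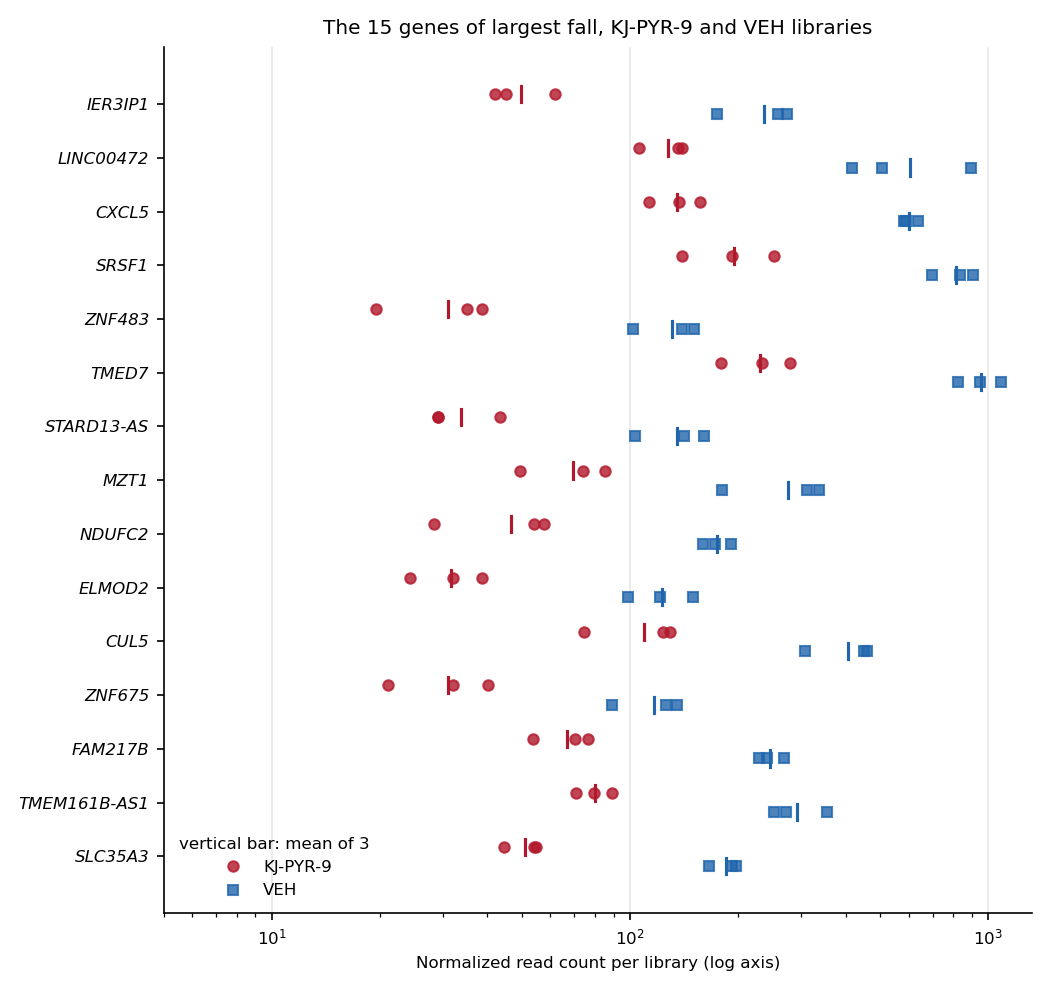
Normalized read count per library (log axis) of the 15 genes of largest fall, with KJ-PYR-9 as red circles above VEH as blue squares and the vertical bar at the mean of 3. The 15 were taken among called genes that average 50 or more and whose groups do not overlap. In each of the 15 genes every KJ-PYR-9 library lies below every VEH library, which that choice required.

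Zinc finger genes named ZNF, most of which encode DNA-binding repressors, formed the largest family that leaned downward. Of 455 tested 214 fell and 50 rose, with a median of -0.51, beside 17.5% and 25.4% of all genes. At 2-fold 78 fell and 7 rose. The GC-removed median was -0.17, with 89 lower and 30 higher. Without KJ-PYR-9 replicate 3 there were 142 falls and 30 rises, and without VEH replicate 1 there were 140 falls. ZNF483 had 35.1, 38.6 and 19.5 in the KJ-PYR-9 libraries, against 151, 140 and 102 in the VEH libraries (log2 fold change -2.08, SE 0.34, limma adjusted p = 0.00203), and ZNF675 had 40.1, 32.1 and 21.1 in KJ-PYR-9 and 135, 126 and 89.1 in VEH (log2 fold change -1.90). ZNF681, ZNF141 and ZNF546 changed by -1.80, -1.72 and -1.68, while ZNF784, ZNF335 and ZNF653 went up by 1.20, 1.16 and 1.11.

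Splicing genes other than SRSF1 were divided: 4 of 28 rose and 7 fell, the median was -0.11, and the GC-removed median 0.29 with 11 higher and 1 lower. SRSF7 and SRSF9 rose by 0.63 and 0.84, and the kinase CLK4 fell by 0.79 on the log2 scale but stood at 0.03 after removal of the trends. The kinase CLK1 had 327, 295 and 298 in the KJ-PYR-9 libraries, against 241, 237 and 234 in the VEH libraries, a log2 fold change of 0.37 that did not pass (limma adjusted p = 0.0542), whereas its GC-removed value of 1.22 did (limma adjusted p = 0.000342), and with the block the deposited value did too (0.0138). With quantile scaling 4 rose and 14 fell (median -0.40). Rises were 2 to 3 and falls 2 to 6 without 1 library. The rises numbered 2 without KJ-PYR-9 replicate 1 or 3 or any VEH replicate, and the falls 3 without KJ-PYR-9 replicate 1 or VEH replicate 2 and 2 without KJ-PYR-9 replicate 3 or VEH replicate 1.

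Long noncoding RNAs leaned downward as deposited in the annotation as a whole, with 23 higher and 85 lower at 2-fold of 594 tested, against 853 and 678 of 12354 protein-coding genes. That class was not counted after removal of the trends. In the list of snoRNA hosts and named long noncoding RNAs, 23 of 149 rose and 32 fell (median -0.11). Those were 15.4% and 21.5%, beside 25.4% and 17.5% of all genes, so the share of falls was near that of all genes. With the trends removed 21 of 136 in that list rose and 21 fell (median -0.08). NEAT1, the scaffold of paraspeckles, had 24765, 13773 and 15081 in the KJ-PYR-9 libraries, against 4275, 2909 and 3943 in the VEH libraries (log2 fold change 2.24, SE 0.23, limma adjusted p = 0.00019). LINC00472 had 106, 140 and 136 in the KJ-PYR-9 libraries, against 895, 418 and 506 in the VEH libraries (log2 fold change -2.18, SE 0.38, GC-removed value -2.10). MIRLET7BHG, the host of let-7 microRNAs, had 215, 232 and 219 in the KJ-PYR-9 libraries, against 726, 545 and 672 in the VEH libraries, with a GC-removed value of -2.22 beyond its deposited -1.53. STARD13-AS and TMEM161B-AS1, antisense RNAs, fell by 1.97 and 1.86 on the log2 scale. Whether counting used strand is not given, so their reads cannot be told apart from those of overlapping genes. Among homeobox genes HOXC8 fell to 142, 147 and 109, against 319, 391 and 244 in VEH.

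Cholesterol genes split by member. MSMO1, a sterol synthesis enzyme, had 233, 273 and 228 in the KJ-PYR-9 libraries, against 748, 673 and 542 in the VEH libraries, and INSIG2 and STARD4, of sterol sensing and transport, changed by -1.58 and -1.41. In all 11 of 29 rose and 7 fell (37.9% and 24.1%, beside 25.4% and 17.5% of all genes). With quantile scaling 6 rose and 9 fell (median 0.07), and with the trends removed 4 rose and 4 fell (median 0.12). Rises numbered 6, 3, 4 and 3 without KJ-PYR-9 replicate 1, KJ-PYR-9 replicate 3, VEH replicate 1 and VEH replicate 2. Interferon genes showed no common direction, with 6 higher and 7 lower of 31. Those were 19.4% and 22.6%, near the 25.4% and 17.5% of all genes. In siMYC 31 of 31 were called higher with a median of 3.96, beside 11.4% of all genes there. Of the 31, with the trends removed 1 rose and none fell (median 0.10), with quantile scaling 2 rose and 8 fell (median -0.22), and with the block 13 rose. Rises of that list numbered 0 without KJ-PYR-9 replicate 3 or VEH replicate 2 and 3 without KJ-PYR-9 replicate 1 or VEH replicate 1, and falls 2, 4, 1 and 3 without KJ-PYR-9 replicate 2, KJ-PYR-9 replicate 3, VEH replicate 1 and VEH replicate 3. Mitochondrially encoded mRNAs were called 5 higher and 3 lower of 13 (median 0.20), with ND4L at 1.02 and ND3 and ATP8 at -1.25 and -1.21. With quantile scaling the balance turned, as 1 rose and 5 fell (median -0.45).

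The effect of KJ-PYR-9 was measured a second time in cells that also had DEX, with no library in common. Of 13616 genes 33.6% were higher in KJ-PYR-9+DEX than in DEX and 35.1% lower. The interaction, meaning that effect minus the effect without DEX, was called positive for 7.15% and negative for 9.62%. Genes of moderate change in KJ-PYR-9 against VEH kept their direction for the most part. Of 849 genes called up with a log2 fold change of 1 to 2, 578 were called up with DEX (68.1%) and 75 down (8.83%). Of 779 genes called down with a log2 fold change of -2 to -1, 567 were called down (72.8%) and 67 up. The 102 genes of the largest rises did the opposite: 14 were called up (13.7%) and 63 down (61.8%), with a median of -1.15, and the interaction was called for 85. Those genes were chosen by values that also enter the interaction, so that last count is a description. The same GC trend held with DEX, where rho was 0.81 between log2 fold change and GC content.

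MYC was lower with the drug when DEX was present, with 4305, 3666 and 4510 in KJ-PYR-9+DEX and 19573, 16916 and 18783 in DEX (log2 fold change -2.15), and the interaction was -4.63 (SE 0.29, limma adjusted p = 4.38e-06). EGR1 had 955, 531 and 1073 in KJ-PYR-9+DEX and 10857, 10815 and 11613 in DEX, and NR4A1 had 273, 120 and 185 and 3584, 3791 and 4316 in the same order. IL6 had 96.3, 55.3 and 118 in KJ-PYR-9+DEX, against 5177, 4000 and 3625 in DEX, and DUSP1 had 3097, 2095 and 2879, against 6992, 7638 and 6478. By list, 8 of 9 EGR and NR4A genes were lower and 1 higher with DEX (median -3.07), 10 of 17 cytokines lower and none higher (-1.38), 40 of 85 short-lived mRNAs lower and 15 higher (-0.42), and 15 of 29 other early genes lower and 5 higher (-0.53). Histone genes were 31 higher and 2 lower of 58 (0.65), and ZNF genes 222 lower and 96 higher of 455 (-0.44). Of the 812 genes called down at 2-fold without DEX, 73 were called up with it (8.99%). LINC00472, at -2.18 without DEX, was 0.31 with it, an interaction of 2.49 (limma adjusted p = 0.0107), and MIRLET7BHG, at -1.53 without DEX, was 2.89 with it (interaction 4.42, limma adjusted p = 4.31e-06).

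**Figure D5:**
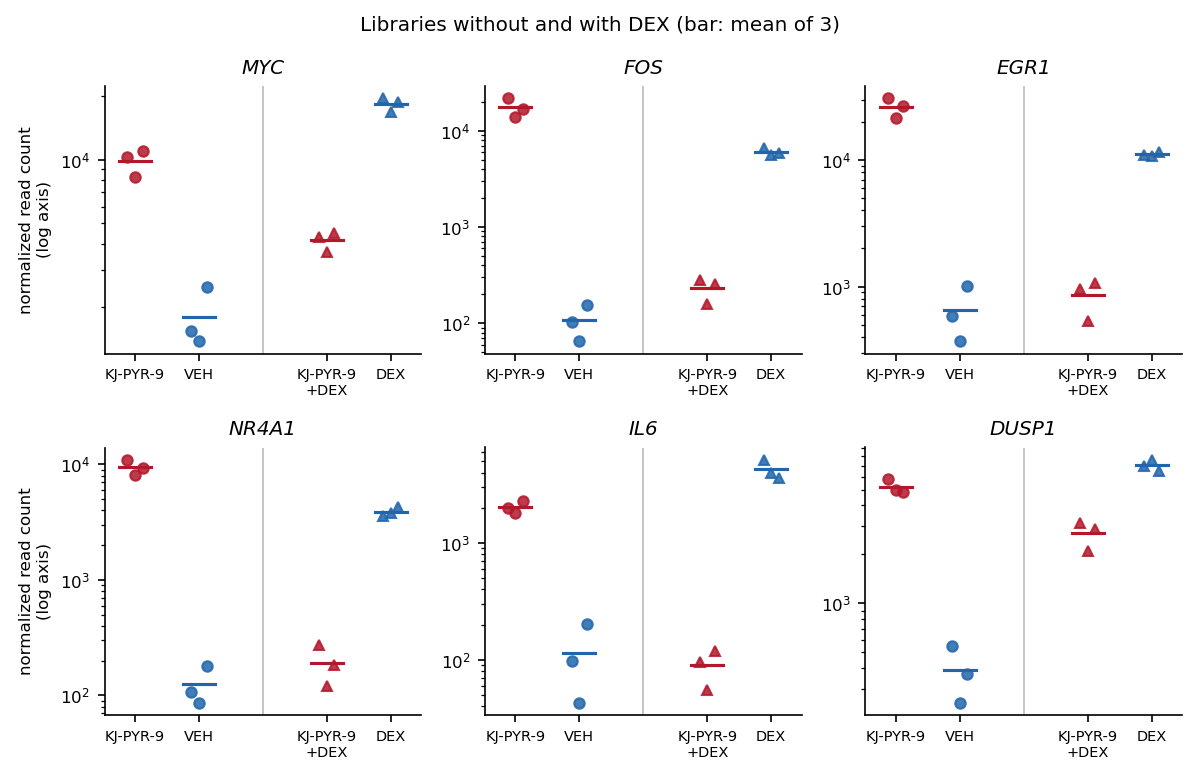
Normalized read count per library (log axes) of MYC, FOS, EGR1, NR4A1, IL6 and DUSP1, with KJ-PYR-9 and VEH on the left of each panel and KJ-PYR-9+DEX and DEX on the right (bar: mean of 3). All 6 genes are higher in KJ-PYR-9 than in VEH and lower in KJ-PYR-9+DEX than in DEX.

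In the knockdown, 185 of the 883 genes called up at 2-fold by KJ-PYR-9 and tested there were called up in siMYC and 23 down, beside a background of 11.4% and 4.78%. Of the 789 genes called down at 2-fold, 9.89% were called down and 2.41% up. FOS, EGR1 and NR4A1 had log2 fold changes of 0.49, 0.27 and 0.22 in siMYC against siCtl, and none passed (limma adjusted p = 0.427, 0.725 and 0.706). Counts of knockdown calls carry the instability given above.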

How the data were processed

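Per the labels' protocols, RNA of BT549 cells was extracted with Tri-reagent, ribosomal RNA was removed, NEBNext libraries were prepared and both ends were sequenced on an Illumina NovaSeq. The authors deposited, for each library, a signal per gene that consists of read counts normalized between libraries; DESeq2, featureCounts, SAMtools and bcl2fastq and the build GRCh38 appear in the submitters' processing notes. The aligner, annotation, tool versions and strandedness are not given in the sources used here. Dividing each value by a factor per library gave whole reads within 0.0001 for 100% of the values of these 6 libraries, so depth could be recovered. Depth limits low genes most in VEH replicate 3, where 1 read is worth 1.563 normalized reads.

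The inhibitor table held 24290 features, of which 6462 had no symbol and stayed out of the tests, and 32 repeated a symbol and were summed, which left 17796 genes. The 13616 genes whose mean reached 10 across the 12 libraries of the inhibitor experiment entered 1 fit of 4 groups on log2(value + 1), by limma 3.58.1 (R 4.3.3), two-sided, and were called at an adjusted p (Benjamini-Hochberg) under 0.05. Fold changes on this scale understate the change of low genes. The plan provided for this test where the files held normalized values. A second rule also asked for a 2-fold change. The knockdown table was fitted alone, with 14788 genes. On simulated data of 13609 genes the fit recovered 82 of 100 genes changed by 1 on the log2 scale. It recovered 100 of 100 changed by 2, with 4 false calls. These counts hold for the simulated data only. The real libraries carry a GC trend within groups (rho 0.46) and residuals that pair by replicate number. Recovery and false calls under those conditions were not tested.

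The 18 pairs of libraries that share a replicate number in the inhibitor experiment had residual correlations of 0.13 to 0.524, against -0.468 to 0.236 in the 36 other pairs, so numbers were taken as pairing libraries; in the knockdown the 3 pairs gave -0.346 to -0.02 and did not pair. Trends of log2 values with transcript GC content and length were removed per library for 13288 genes. Transcript properties came from GENCODE (17052 of 18084 symbols matched) and gene positions and types from RefSeq (17754 matched). Promoters came from RefSeq on GRCh38.p14, with an entry for 10464 of the 13616 genes tested. Tested alternatives were TMM and quantile scaling, a pseudocount of 5, no filter, a mean of 50, a trended and robust variance, the replicate block, removal of the trends, edgeR 4.0.16 and DESeq2 1.42.0 on whole reads, and leaving out each library. The members and the gene lists were chosen with earlier results of these data known. Named were MYC, its network, up to 6 called members of largest rise and 6 of largest fall of a list (all members of lists of up to 21), and, among called genes that average 50 or more without overlap of the groups, the 15 that rose most and the 15 that fell most. Other list members given as examples were chosen after their values were seen. Some genes that the rule covers are not reported here.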

Additional observations from a re-analysis of the deposited data

Results flagged for a closer look

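For 18 of the 30 genes of largest rise or fall, and for MYC, the effect of KJ-PYR-9 differed between cells with and without DEX by the interaction term of the limma fit. The interaction is the log2 fold change of KJ-PYR-9+DEX minus DEX less that of KJ-PYR-9 minus VEH, and the 30 genes were chosen by the second of these. The choice was made among called genes that average 50 or more without overlap of the groups. All 15 of the largest rises so chosen were among the 18. The AP-1 genes FOS, FOSB and ATF3 had interactions of -12.13, -8.03 and -8.23. NR4A1, NR4A2 and NR4A3 had -10.69, -10.90 and -8.12, and EGR1 and EGR2 had -9.20 and -7.15. IL6 had -10.01, BTG2 had -6.50 and IQCN had -5.61. DUSP1, CSRNP1, ZFP36 and ARC had -5.22, -4.74, -4.61 and -4.29, and MYC had -4.63. Of the falling genes 3 noncoding RNAs passed, LINC00472 at 2.49, TMEM161B-AS1 at 1.62 and STARD13-AS at 1.46, with log2 fold changes of 0.31, -0.24 and -0.51 in KJ-PYR-9+DEX minus DEX.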

How the results depend on the processing

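Named genes kept their direction and side of the threshold in most settings, and the counts over all genes moved more. With GC content and length trends removed, 3248 genes were called for KJ-PYR-9 minus VEH, against 5835 as deposited, and 4362 for KJ-PYR-9+DEX minus DEX, or 5788 with the replicate block as well. Leaving out 1 library gave 3393 (without KJ-PYR-9 replicate 3) to 6124 (without DEX replicate 1) for KJ-PYR-9 minus VEH and 1469 to 2731 for the interaction, whose count without KJ-PYR-9 replicate 1 was the lowest. For the interaction the replicate block gave 4399 genes, with TMM scaling 4165 and with the trends removed 3836. The replicate block raised the count for KJ-PYR-9 minus VEH to 7897 (4379 higher, 3518 lower; 32.2% and 25.8%), edgeR gave 7061 and DESeq2 7224. In siMYC minus siCtl the counts ran from 432 to 3983 without 1 library, with 470 under the replicate block and 3782 with DESeq2. The cause of these moves was not tested, and each left-out fit also holds fewer libraries. Of 199 named genes, 181 were called as deposited; the block gained 6 and lost 0, removal of the trends ended the call of 17, quantile scaling lost 3 and TMM scaling 0. Values reversed by removal of the trends were small: CLK4 at 0.03 and NAB1 at 0.01, also with the block or with only the 6 libraries compared, MGA at 0.25, and MXD3 at -0.28 with the block. Trends removed with the block still gave 4753 genes for KJ-PYR-9 minus VEH (22.9% higher, 12.9% lower). Depth limits genes near 10 reads most, above all in VEH replicate 3.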
